A study of Mus musculus with 7 samples.

Results

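The erythroid cell genes described here are 9 genes that red cell precursors use: Klf1, Epor, Alas2, Slc4a1, Ank1, Rhag, Ermap, Car1 and Car2. They were picked by name, as genes that mark the erythroid lineage, and not by their values, although earlier results of the same arrays were known when they were picked. They make up 9 of the 19057 genes that the arrays measured with a probe of 1 gene symbol, and 14 probes of the arrays carry their symbols.

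RNA came from cells of mouse bone marrow isolated with magnetic beads and an antibody to CD41, the integrin subunit on megakaryocytes (MKs) and platelets, and labelled by the submitters as bone marrow megakaryocytes. All mice were C57BL/6J males of 10 to 12 weeks of age with an osmotic pump under the skin. The saline group (3 arrays) and the 5-HT group (4 arrays, serotonin at 25.8 mM in the pump and 1.66 ug per kg per h) were both infused for 24 h, and the marrow of 3 to 4 mice went into each sample, so that single mice cannot be followed. The question put to these genes was whether the RNA of the isolated cells held a different amount of erythroid transcripts after 5-HT infusion.

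Megakaryocytes and red cells arise from a shared progenitor in the marrow, and both lineages use the transcription factors GATA1, TAL1 and GFI1B. On the erythroid side erythropoietin binds its receptor, KLF1 switches on red cell genes, ALAS2 makes the first precursor of heme, the globins take up the heme, and transport and anchor proteins are laid down in the membrane. Young red cells lose the nucleus and still carry globin RNA for a time. In bulk RNA, fewer erythroid cells and less RNA per erythroid cell cannot be told apart.

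The regulatory stretch in front of a gene shows what a shared control region of this lineage can look like. RefSeq promoter windows (GRCm38.p6) were found for 5 of the 9 genes, Klf1, Epor, Alas2, Rhag and Ermap. Windows for Alas2, the one of these 5 that was kept for the main test, for Epor, the receptor, and for Klf1, the regulator, are shown for the 250 bases before the annotated start, 5′ to 3′ on the strand of the gene, at chrX:150547167-150547416 on the plus strand for Alas2, chr9:21963577-21963826 on the minus strand for Epor and chr8:84901732-84901981 on the plus strand for Klf1. Capitals mark TTATC, the other-strand reading of GATAA, a core sequence that GATA factors bind.
Alas2: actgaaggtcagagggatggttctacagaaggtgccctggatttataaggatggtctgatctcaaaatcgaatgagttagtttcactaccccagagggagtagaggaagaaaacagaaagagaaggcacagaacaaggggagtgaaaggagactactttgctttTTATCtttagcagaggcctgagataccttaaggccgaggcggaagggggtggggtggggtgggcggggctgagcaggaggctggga
Epor: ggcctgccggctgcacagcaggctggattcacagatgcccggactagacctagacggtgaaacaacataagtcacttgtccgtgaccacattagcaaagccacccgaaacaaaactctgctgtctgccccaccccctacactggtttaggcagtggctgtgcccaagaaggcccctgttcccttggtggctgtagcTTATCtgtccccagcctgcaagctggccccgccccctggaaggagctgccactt
Klf1: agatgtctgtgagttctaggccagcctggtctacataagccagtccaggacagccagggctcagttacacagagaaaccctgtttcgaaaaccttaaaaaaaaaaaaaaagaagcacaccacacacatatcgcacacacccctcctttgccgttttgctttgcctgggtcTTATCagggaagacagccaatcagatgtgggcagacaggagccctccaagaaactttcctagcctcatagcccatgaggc
Each of the 5 windows held GATAA once, on the other strand, starting 86 bases before the start that the window uses in Alas2, 80 in Klf1, 67 in Ermap, 54 in Epor and 31 in Rhag. For Rhag and Ermap that start lies inside the gene span given with the values, so that the last bases of both windows, the Rhag motif among them, are within the span. GATAA stood on either strand in 22.6% of the 32851 mouse windows of the same length. CACCC, the core that KLF1 binds, was searched on both strands (GGGTG on the other) and stood in 5 of these 5 windows and in 52% of all windows, and 10.1% of all windows held both motifs. The motifs can overlap by a single base, as TTATC ends with the C that opens CACCC, and a match is a description of the letters only.

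Of the 9 members, only Slc4a1 and Alas2 had a mean signal of at least 7.5 on the log2 scale over the 7 arrays, the limit used to keep genes for the main test, which kept 5428 genes (28.5%). The values are log2 signals as deposited, with every array at the same median of 6.68 over all its probes. On this scale the saline and 5-HT arrays overlapped for 9 of 9 members. None of the 2 kept members passed an adjusted p of 0.05 with limma (Benjamini-Hochberg over the 5428 genes), as none of all genes did (0%; 311 genes had an unadjusted p under 0.05). The percent of genes past a fold change of 1.5 with an unadjusted p under 0.05 was 5.71% for higher and 0.0184% for lower in 5-HT, and 0 of 2 members were among either. These were 310 and 1 genes, a split that became 52 and 129 after each array was shifted to the same median over the genes kept, 65 and 92 after quantile normalization and 41 and 103 after cyclic loess.

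**Figure D1:**
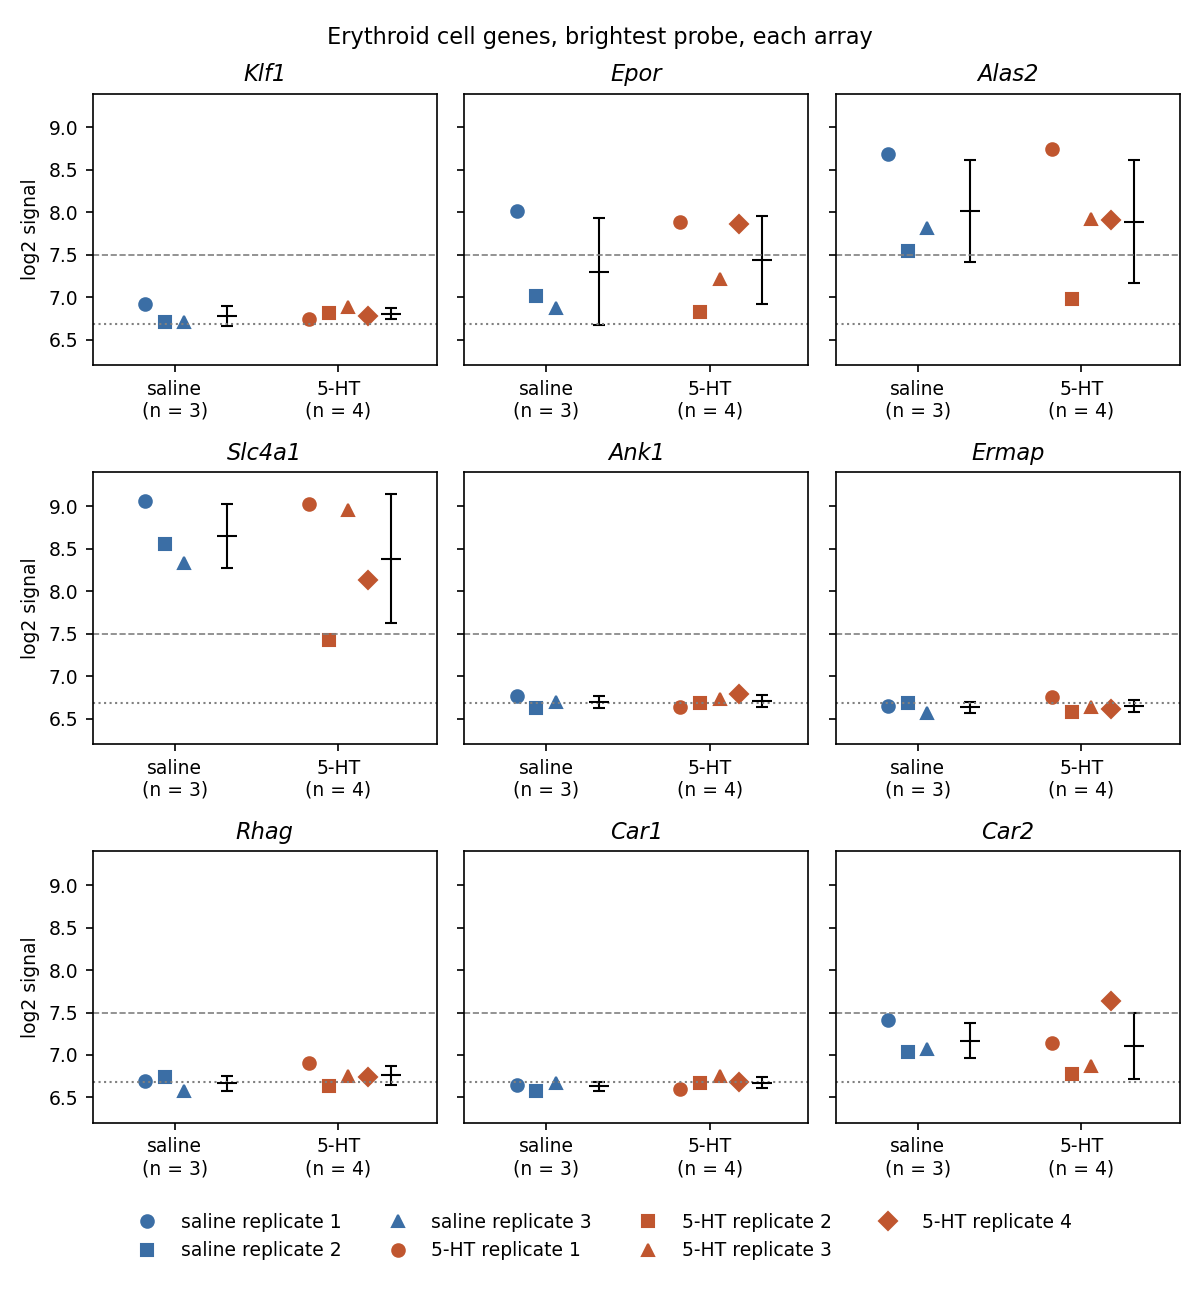
Log2 signal of the brightest probe of each of the 9 members (y axis) in the 3 saline and 4 5-HT arrays, 1 symbol per array, with the mean and SD of each group as a black bar. The dashed line is the limit of 7.5, the dotted line is the median of all probes (6.68), and the values of Klf1, Ank1, Ermap, Rhag and Car1 stayed between 6.56 and 6.92.

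Slc4a1 encodes band 3, the chloride and bicarbonate exchanger of the red cell membrane, and lies on chromosome 11 (102348820 to 102365281, GRCm38.p6). Its log2 signals were 9.06, 8.56 and 8.33 in saline replicates 1, 2 and 3, and 9.03, 7.42, 8.96 and 8.13 in 5-HT replicates 1, 2, 3 and 4. Saline replicate 1 and 5-HT replicates 1 and 3 lay close together at the top, 5-HT replicate 2 lay lowest, and the groups overlapped. The saline mean was 8.65 ± 0.37 (SD, n = 3) and the 5-HT mean 8.38 ± 0.76 (SD, n = 4). They differed by a log2 fold change of -0.27, whose standard error was 0.42 (limma adjusted p = 0.702, two-sided exact permutation p = 0.686). With 3 arrays against 4 there are 35 splits and the exact permutation test can give no p below 0.0286. Replicates are separate pools, and the p-values measure the spread between these pools.

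Alas2 encodes the erythroid 5-aminolevulinate synthase, the enzyme that starts heme synthesis in red cell precursors, and lies on chromosome X (150547417 to 150570622). Log2 signals of 8.69, 7.54 and 7.81 were measured in saline replicates 1 to 3 and of 8.75, 6.98, 7.92 and 7.91 in 5-HT replicates 1 to 4. The order resembled that of Slc4a1 at its ends, with saline replicate 1 and 5-HT replicate 1 high and 5-HT replicate 2 low, and the groups overlapped. The mean was 8.01 ± 0.60 (SD, n = 3) with saline and 7.89 ± 0.72 (SD, n = 4) with 5-HT. The log2 fold change was -0.12 and its standard error 0.43 (limma adjusted p = 0.856, exact permutation p = 0.914).

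Single arrays set the sign of these differences. Without 5-HT replicate 2 the log2 fold change was 0.06 for Slc4a1 and 0.18 for Alas2, and without saline replicate 1 it was -0.06 for Slc4a1 and 0.21 for Alas2. The median log2 fold change of the 2 kept members was -0.19, beside a median of 0.42 over all 5428 genes.

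Epor, the receptor for erythropoietin, lies on chromosome 9 (21958897 to 21963576) and had a mean log2 signal of 7.38, just under the limit. Its log2 signals were 8.02, 7.01 and 6.87 in saline replicates 1 to 3 and 7.88, 6.82, 7.21 and 7.86 in 5-HT replicates 1 to 4. Saline replicate 1 and 5-HT replicates 1 and 4 were high, and the other saline arrays and 5-HT replicate 2 lay near the median of all probes. In a limma fit of all 19057 genes with no limit on the signal the log2 fold change was 0.14 with a standard error of 0.39 (adjusted p = 0.928), and in that fit 0 genes (0%) passed the adjusted p of 0.05 and 1022 had an unadjusted p under 0.05. Without saline replicate 1 the log2 fold change of Epor was 0.50.

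Klf1 (chromosome 8, 84901982 to 84905291), the zinc finger factor that activates adult beta globin and many other red cell genes, gave log2 signals of 6.92, 6.71 and 6.71 in the saline arrays and 6.74, 6.81, 6.89 and 6.78 in the 5-HT arrays. The highest value was in a saline array and the lowest values were in the other saline arrays, so that the 5-HT arrays lay inside the saline range. The log2 fold change without the signal limit was 0.03 with a standard error of 0.07 (limma adjusted p = 0.934).

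The other membrane members had no signal that stood away from the median of all probes. Ank1 (chromosome 8, 22974836 to 23150501), the ankyrin that ties band 3 to the spectrin skeleton, had log2 signals of 6.76, 6.62 and 6.69 in the saline arrays and 6.63, 6.68, 6.73 and 6.79 in the 5-HT arrays. Rhag (chromosome 17, 40811099 to 40844094), the glycoprotein of the Rh complex, had 6.69, 6.74 and 6.57 in the saline arrays and 6.91, 6.64, 6.75 and 6.74 in the 5-HT arrays. For Ermap (chromosome 4, 119175457 to 119190013), an adhesion protein of the red cell surface, the values were 6.65, 6.68 and 6.56 in the saline arrays and 6.75, 6.58, 6.64 and 6.61 in the 5-HT arrays. The groups overlapped for each of the 3 genes, with unfiltered log2 fold changes of 0.02, 0.09 and 0.01 and limma adjusted p-values of 0.944, 0.811 and 0.950.

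The carbonic anhydrases turn carbon dioxide and water into bicarbonate, the ion that band 3 exchanges. Car1 (chromosome 3, 14766214 to 14808365), the form abundant in red cells, had log2 signals of 6.65, 6.57 and 6.67 in the saline arrays and 6.60, 6.67, 6.75 and 6.68 in the 5-HT arrays. Car2 (chromosome 3, 14886269 to 14900770), which many other cells also make, had 7.41, 7.03 and 7.07 in the saline arrays and 7.14, 6.78, 6.87 and 7.64 in the 5-HT arrays. Car1 did not leave the range of the median of all probes, while the Car2 probe was highest in 5-HT replicate 4 and saline replicate 1 and lowest in 5-HT replicate 2. The second Car2 probe gave 6.49 to 6.66 and did not follow the first. The unfiltered log2 fold change was 0.04 with a standard error of 0.05 for Car1 (limma adjusted p = 0.846) and -0.06 with a standard error of 0.23 for Car2 (adjusted p = 0.946).

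Klf1, Ank1, Rhag, Ermap and Car1 have 9 probes between them, and the 63 values of these probes lay between 6.52 and 6.92. At that height the arrays could not show a decrease, and no array of either group rose above 6.92. The values do not say that the genes were silent, and whether these probes would show a small rise was not tested. The differences of the brightest probes, 0.015 to 0.093 on the log2 scale, are differences between values near the median of all probes.

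Because the genes kept were brighter in most 5-HT arrays, the same members were also set against the rest of their own array. The median log2 signal over the 5428 kept genes was 8.99, 8.15 and 8.31 in saline replicates 1 to 3 and 9.43, 8.28, 8.96 and 9.03 in 5-HT replicates 1 to 4. Saline replicate 1 thus stood with 5-HT replicates 1, 3 and 4, and 5-HT replicate 2 with saline replicates 2 and 3. Subtracting these medians moved the median log2 fold change of all genes from 0.42 to -0.02.

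Relative to the array median, Slc4a1 stood at 0.07, 0.41 and 0.015 in saline replicates 1 to 3 and at -0.40, -0.86, 0.00 and -0.90 in 5-HT replicates 1 to 4, on the log2 scale. Each 5-HT value was below each saline value, but 5-HT replicate 3 lay only 0.015 under saline replicate 3. The log2 fold change was -0.70 with a standard error of 0.25, with an unadjusted limma p of 0.0190, an adjusted p of 0.884 and an exact permutation p of 0.0571. Alas2 stood at -0.30, -0.61 and -0.51 in the saline arrays and at -0.68, -1.30, -1.04 and -1.12 in the 5-HT arrays on the same relative log2 scale. Again each 5-HT array was below each saline array, and the nearest pair was saline replicate 2 and 5-HT replicate 1. The log2 fold change of Alas2 was -0.56 with a standard error of 0.20 (unadjusted limma p = 0.0197, adjusted p = 0.884, exact permutation p = 0.0571).

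Of all genes kept, 2.8% had each 5-HT array below each saline array on the relative scale and 3.1% above, where both kept members were among the 2.8%. The share below differed with brightness and was 5.34% for genes with a mean signal of 7.5 to 8, which holds Alas2, 2.47% from 8 to 10, which holds Slc4a1, 0.558% from 10 to 12 and 1.69% from 12 to 16, which holds the globins described next. On the deposited scale the percentages were 0.129% below and 6.28% above, and no member was among them. With the methods' threshold of a 1.5-fold change and an unadjusted p under 0.05, 1 of 2 members, Slc4a1, was lower on the relative scale, beside 2.38% of all genes, and 1 of 2, again Slc4a1, after quantile normalization, beside 1.69% of all genes. Neither member passed an adjusted p of 0.05 on any of these scales.

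**Figure D2:**
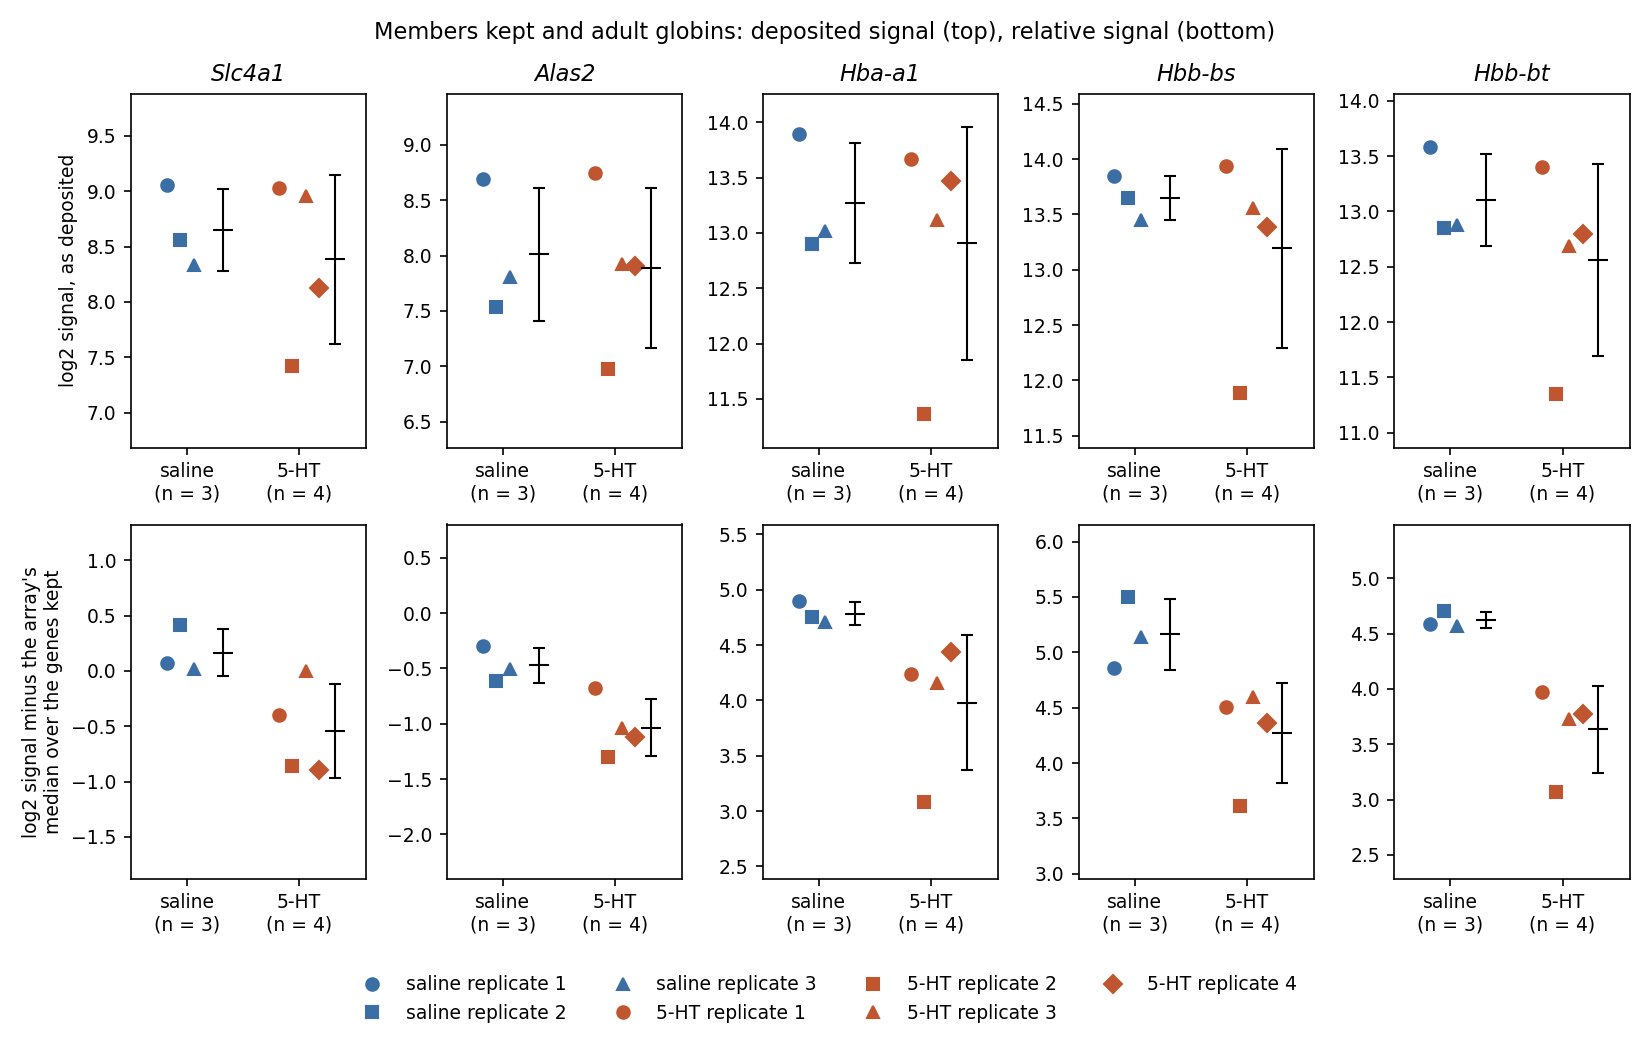
Log2 signal of Slc4a1, Alas2 and the 3 adult globins that were kept in each array, as deposited (top) and minus the median of the array over the genes kept (bottom), with group means and SD as black bars and each panel spanning 3.2 log2 units. In the lower panels the 4 5-HT arrays lie below the 3 saline arrays for each gene, by 0.015 for Slc4a1, while in the upper panels the groups overlap and 5-HT replicate 2 is lowest.

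The adult globins, the chains of hemoglobin, were read as the nearest neighbours of these members in the red cell, from a list of 10 globin and chaperone genes of which 7 were measured and 3 kept. Their copies are near identical in sequence, so that a probe may read more than 1 of them. Hbb-bs had log2 signals of 13.85, 13.65 and 13.45 in the saline arrays and 13.94, 11.89, 13.56 and 13.39 in the 5-HT arrays. Hbb-bt had 13.58, 12.85 and 12.88 in the saline arrays and 13.40, 11.35, 12.69 and 12.80 in the 5-HT arrays. For the alpha chain, Hba-a1, 13.89, 12.90 and 13.02 were measured in the saline arrays and 13.67, 11.36, 13.12 and 13.47 in the 5-HT arrays. All 3 were lowest in 5-HT replicate 2 and overlapped between the groups, with log2 fold changes of -0.46 (standard error 0.43) for Hbb-bs, -0.54 (0.43) for Hbb-bt and -0.37 (0.47) for Hba-a1 and limma adjusted p-values of 0.591, 0.564 and 0.650. Without 5-HT replicate 2 the log2 fold changes were -0.02 for Hbb-bs, -0.14 for Hbb-bt and 0.15 for Hba-a1.

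On the relative scale the globins had the same split of the arrays as the 2 members. Hbb-bt was at 4.59, 4.70 and 4.57 above the array median in the saline arrays and at 3.97, 3.07, 3.73 and 3.77 in the 5-HT arrays, in log2 units. The log2 fold change was -0.98 with a standard error of 0.23 (unadjusted limma p = 0.00174, adjusted p = 0.884, exact permutation p = 0.0286). For Hbb-bs it was -0.90 with a standard error of 0.27 (exact permutation p = 0.0286) and for Hba-a1 -0.81 with a standard error of 0.31 (exact permutation p = 0.0571), both with a limma adjusted p of 0.884. Each 5-HT array was below each saline array for all 3 globins, and without 5-HT replicate 2 the relative log2 fold changes were -0.80 for Hbb-bt, -0.68 for Hbb-bs, -0.51 for Hba-a1, -0.60 for Slc4a1 and -0.48 for Alas2. Leaving out saline replicate 1 as well gave -0.81, -0.83, -0.45, -0.65 and -0.39, of which Hbb-bt alone passed the adjusted p (0.0457, limma), beside 7.61% of all genes in that fit. The arrays left out were those that most resembled the other group. Leaving them out sets the groups apart by itself, so that this p-value cannot serve as a test. The embryonic chains Hba-x, Hbb-y and Hbb-bh1 and the probe with the beta globin symbol Hbb-b2 (6.82 to 7.17) had a mean signal under the limit.

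**Figure D3:**
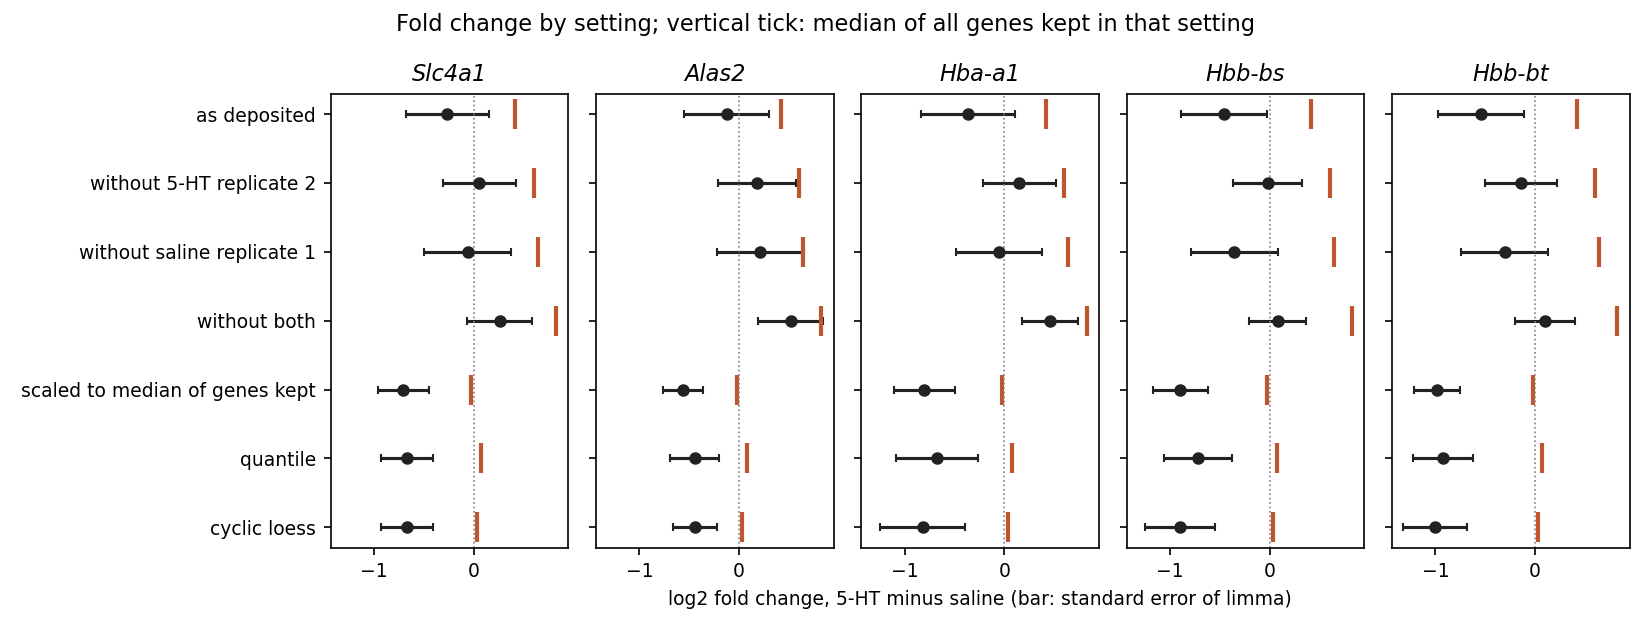
Log2 fold change (x axis, 5-HT minus saline, with the standard error of limma as a bar) of Slc4a1, Alas2 and 3 globins under 7 settings (y axis), and the median of all genes kept in the same setting as a vertical tick. Slc4a1 lay at -0.27 as deposited and at 0.06 without 5-HT replicate 2, and in each setting the 5 genes lay to the left of the tick of all genes.

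5-HT replicate 2 was the lowest of the 7 arrays for 5 of 5 of these genes (2 members and 3 globins), and it was the lowest for 15.5% of all genes kept. Saline replicate 2 was the lowest array for 55% of all genes and for 0 of these 5. The highest array was saline replicate 1 for 3 of the 5 genes and 5-HT replicate 1 for the other two, against 9.01% and 63.4% of all genes kept. Of the members not kept, Epor (6.82) and Car2 (6.78) were also lowest in 5-HT replicate 2. The 5 members near the median of all probes, whose values differed little between arrays, were lowest in saline arrays. Genes of the other erythroid lists were lowest in different arrays, such as Lmo2 in 5-HT replicate 2 and Urod in saline replicate 2.

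The other erythroid genes were taken from 6 lists of 100 genes, of which 88 were measured and 47 kept, the globins included. None of the 47 passed an adjusted p of 0.05. The median log2 fold change on the deposited scale was -0.46 for the 3 globins, 0.49 for 5 membrane and skeleton genes, 0.33 for 11 genes of heme synthesis and iron, 0.48 for 14 transcription factors, 0.25 for 6 genes of erythropoietin signalling and 0.33 for 8 late enzymes and organelle clearance genes, beside 0.42 for all genes. On this scale the globins alone had a median below 0. Relative to the array median the list medians were -0.90 for the globins, 0.05 for membrane and skeleton, -0.12 for heme synthesis and iron, 0.04 for transcription factors, -0.19 for erythropoietin signalling and -0.11 for late enzymes and organelle clearance, beside -0.02 for all genes. Outside the globins, Pik3r1 and Ubac1 had each 5-HT array below each saline array on the relative scale. Nfe2 and Bnip3l had each above, and the shares of all genes were 2.8% below and 3.1% above.

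Membrane genes other than the members had another order of arrays than Slc4a1. Slc14a1, the urea transporter of the red cell, had log2 signals of 10.03, 7.56 and 7.55 in the saline arrays and 9.92, 7.82, 8.53 and 10.58 in the 5-HT arrays. Aqp1, the water channel, had 8.74, 7.01 and 7.18 in the saline arrays and 9.18, 7.02, 8.43 and 8.95 in the 5-HT arrays. Both were high in saline replicate 1 and in 5-HT replicates 1 and 4 and low in saline replicates 2 and 3 and 5-HT replicate 2, with log2 fold changes of 0.83 (standard error 0.58) and 0.75 (0.49) and a limma adjusted p of 0.563 each. These values rested on single arrays: Slc14a1 was at 1.66 without saline replicate 1 (limma adjusted p = 0.0196, with 1.42% of all genes called in that fit) and at 0.38 without 5-HT replicate 4, and Aqp1 was at 1.30 without saline replicate 1 and at 0.43 without saline replicate 2. Gypc, glycophorin C, and Slc2a1, the glucose transporter, had log2 fold changes of 0.29 and 0.49 (adjusted p = 0.720 and 0.569). Megakaryocytes also express several genes of this list.

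The enzymes of heme synthesis after Alas2 are used by all cells that make heme. Urod, the uroporphyrinogen decarboxylase, had log2 signals of 10.63, 10.40 and 10.69 in the saline arrays and 11.70, 10.65, 11.30 and 11.48 in the 5-HT arrays, a log2 fold change of 0.71 with a standard error of 0.38 (limma adjusted p = 0.563, exact permutation p = 0.0857). 5-HT replicate 2 lay inside the saline range and the other 5-HT arrays above it. Tmem14c, the mitochondrial porphyrin transporter, and the ferritin chains Fth1 and Ftl1 had log2 fold changes of 0.37, 0.43 and 0.25 (adjusted p = 0.600, 0.580 and 0.687), and relative to the array median of -0.07, -0.01 and -0.19.

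Among the transcription factors, Nfe2, a subunit of the NF-E2 factor of megakaryocytes and erythroid cells, had log2 signals of 11.22, 10.85 and 10.94 in the saline arrays and 12.68, 11.32, 12.16 and 12.12 in the 5-HT arrays. Each 5-HT array was above each saline array, as for 6.28% of all genes. The log2 fold change was 1.07 with a standard error of 0.39 (unadjusted limma p = 0.0111, adjusted p = 0.563, exact permutation p = 0.0571) and it was 0.63 relative to the array median. Lmo2 and Ldb1, partners of GATA1 and TAL1 in one complex, had log2 fold changes of 0.15 and 0.57, and E2f2, a cell cycle factor used in late red cell divisions, of -0.34 (adjusted p = 0.810, 0.563 and 0.643). The direction of Lmo2 turned to -0.29 relative to the array median.

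In erythropoietin signalling, Jak2, the kinase bound to the receptor, had log2 signals of 8.56, 7.01 and 7.16 in the saline arrays and 8.46, 7.18, 7.51 and 7.69 in the 5-HT arrays, which came to 0.13 as a log2 fold change (standard error 0.43, limma adjusted p = 0.844). The feedback inhibitor Socs3 and the phosphatase Ptpn6 had log2 fold changes of 0.08 and 0.80, and the kinase subunit Pik3r1 of -0.14 (adjusted p = 0.917, 0.563 and 0.819). Jak2 and Socs3 were highest in saline replicate 1, and other blood cells use all 4 genes.

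Bnip3l, the mitophagy receptor that young red cells need to clear their mitochondria, had log2 signals of 10.44, 9.79 and 9.91 in the saline arrays and 11.70, 10.41, 10.85 and 10.89 in the 5-HT arrays. The overlap was a single pair, 5-HT replicate 2 and saline replicate 1, and the log2 fold change was 0.92 with a standard error of 0.39 (unadjusted limma p = 0.0275, adjusted p = 0.563, exact permutation p = 0.0857). Gpx1, Prdx2 and Ube2o, of which Ube2o is the ubiquitin enzyme that removes ribosomes in reticulocytes, had log2 fold changes of 0.23, 0.40 and 0.11 (adjusted p = 0.710, 0.600 and 0.866). Of the 47 genes, Nfe2 and Bnip3l were the 2 past a 1.5-fold change with an unadjusted p under 0.05, both higher, beside the 5.71% of all genes. On the relative scale Nfe2 alone was higher by that threshold, beside 0.958% of all genes. The 3 kept globins were lower by it on that scale, beside 2.38% of all genes.

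**Figure D4:**
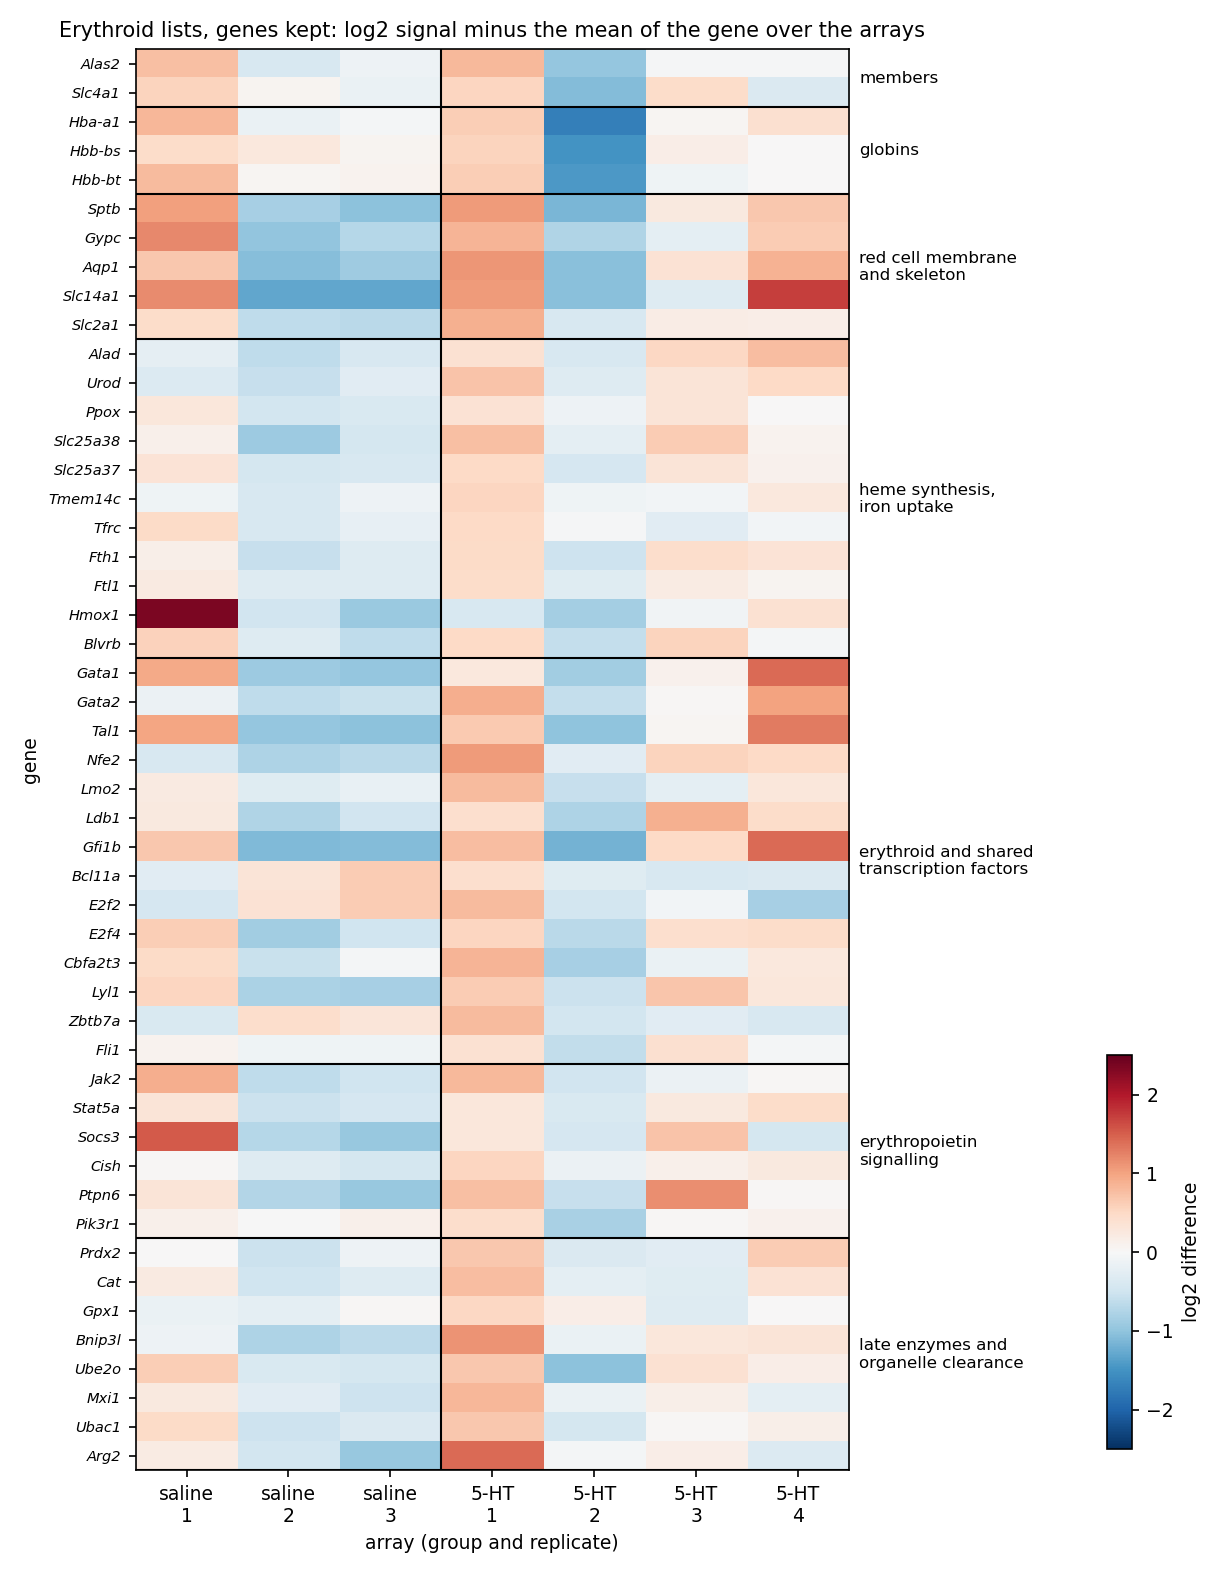
Log2 signal of each kept gene (rows, by list) in each array (columns) minus the mean of that gene over the 7 arrays, with red above and blue below the mean. The members and globins are lowest in 5-HT replicate 2, and many membrane genes and transcription factors are low in saline replicates 2 and 3 and 5-HT replicate 2 alike.

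The genes whose pattern over the 7 arrays was most like that of Slc4a1, after the array medians had been taken off, were Fra10ac1 (Pearson r = 0.920), Cacna1d (0.910), Fip1l1 (0.904), Tmem234 (0.891), Sipa1l1 (0.889) and Tnfaip1 (0.886). No gene of the erythroid lists was among these 6. Among the other genes kept, Hbb-bs stood in place 9 (r = 0.880), Hbb-bt in place 25 (0.815), Alas2 in place 79 (0.733) and Hba-a1 in place 139 (0.667). The 7 points of each correlation share the same arrays, and all 5428 genes carry the same subtraction.

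Markers of the other cells in the preparation differed between the arrays as well. Itga2b, which encodes CD41 itself, had log2 signals of 12.15, 9.17 and 8.86 in the saline arrays and 11.90, 9.36, 11.27 and 12.29 in the 5-HT arrays. Of 14 measured megakaryocyte markers 11 were kept, and their summed signal, as log2, was 13.7 to 15.7 in the saline arrays and 13.6 to 15.8 in the 5-HT arrays. Saline replicate 1 (15.7) and 5-HT replicates 1 (15.8) and 4 (15.7) were high, 5-HT replicate 3 (14.6) lay between, and saline replicates 2 and 3 (13.8 and 13.7) and 5-HT replicate 2 (13.6) were low. The summed globin signal was 14.7 to 15.4 in the saline arrays and 13.2 to 15.3 in the 5-HT arrays, with 5-HT replicate 2 alone at 13.2. Neutrophil markers were kept in 13 of 13 cases, with a summed signal of 17.75 to 18.04 against 18.07 to 18.28. Eosinophil markers were kept in 3 of 7, with 10.1 to 10.9 against 11.2 to 14.3. Both sums were higher in each 5-HT array, the neutrophil sum by a narrow gap. As single kept genes, 3 of 13 neutrophil and 2 of 3 eosinophil markers were higher in each 5-HT array, beside 6.28% of all genes. Relative to the array median these were 0 of 13 and 1 of 3, beside 3.1% of all genes. The monocyte and macrophage sum (9 of 11 kept) was 12.9 to 14.3 against 13.1 to 13.8 and was highest in saline replicate 1. The part of these cells in the erythroid values was not tested.

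**Figure D5:**
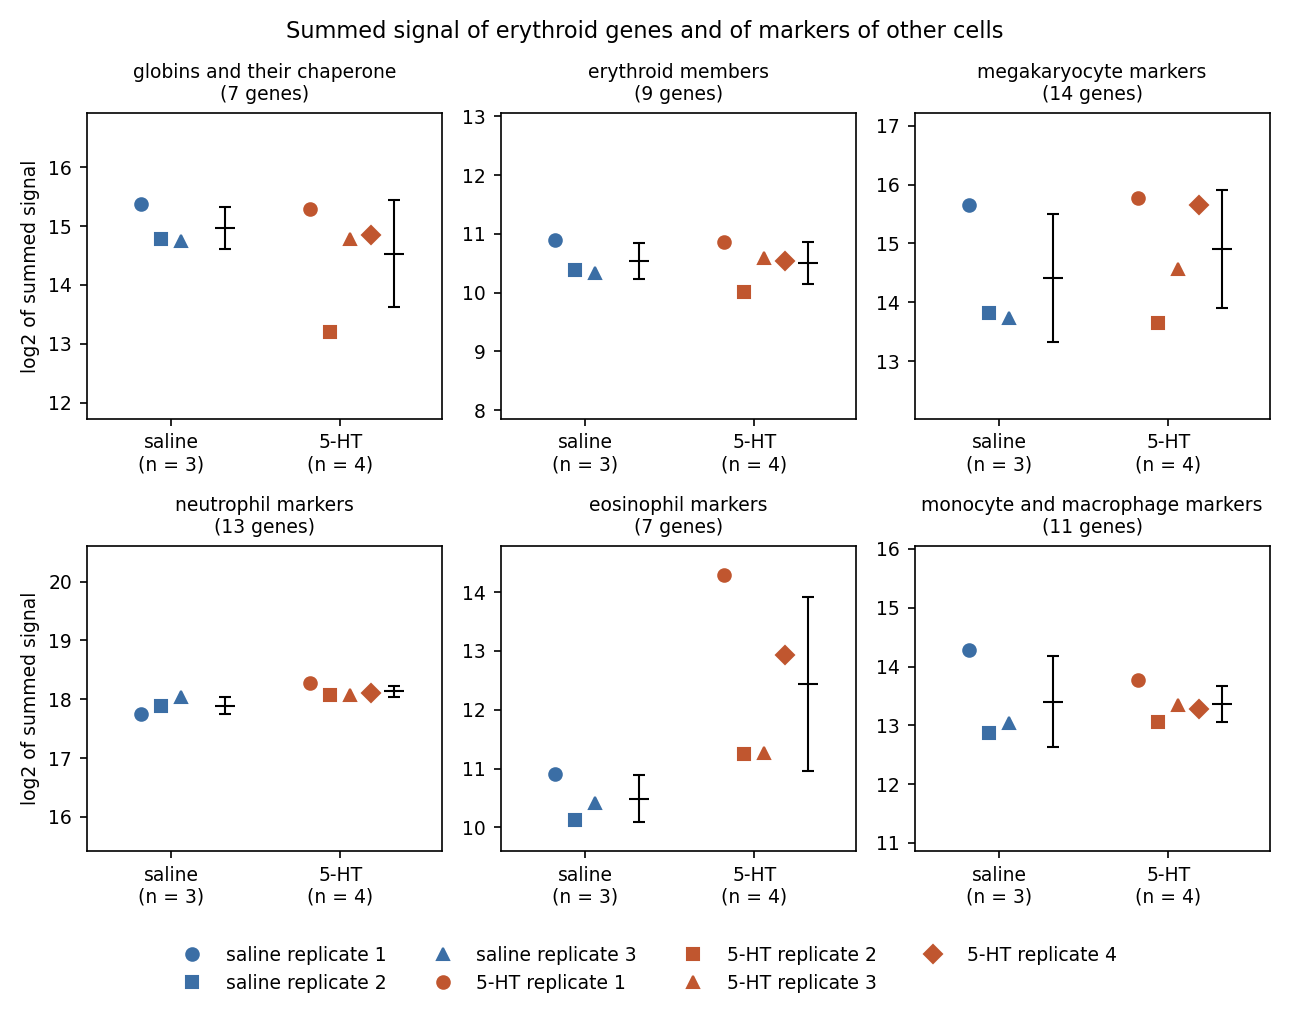
Log2 of the summed linear signal of each list (y axis) in each array, with group means and SD as black bars and each panel spanning 5.2 log2 units. Megakaryocyte markers are low in saline replicates 2 and 3 and 5-HT replicate 2, while globins are low in 5-HT replicate 2 alone.

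The arrays themselves did not fall by label. Over the kept genes the Pearson correlation of 5-HT replicate 2 was 0.976 with saline replicate 2 and 0.975 with saline replicate 3, and 0.922 to 0.946 with the other 5-HT arrays, and that of saline replicate 1 was 0.943 with 5-HT replicates 1 and 4 and 0.884 and 0.891 with the other saline arrays. With saline replicate 1 and 5-HT replicate 2 both left out, the log2 fold changes on the deposited scale were 0.52 for Alas2 and 0.26 for Slc4a1, beside a median of 0.83 over all genes. Both members lay under the median gene with and without these arrays.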

How the data were processed

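RNA of CD41-isolated marrow cells was hybridized to Illumina mouse WG-6 v2 BeadChips, with 3 saline and 4 5-HT arrays. The deposited log2 values entered the tests unchanged. The authors had exported signals from GenomeStudio, log-transformed them and brought all arrays to one median. They removed 1 saline sample as an outlier. Whether background was subtracted is not given in the sources used here. A second table, with signals before normalization, was not used because its 14 value columns match no sample. Of 45281 probes, 34885 carried a single gene symbol, and the 18 with several and the 10378 without a listed symbol were left out. The brightest probe stood for each of 19057 genes, and genes with a mean log2 signal of at least 7.5 were kept. The methods' moderated test was run with limma 3.58.1 in R 4.3.3 (lmFit and eBayes, 5 residual and 18.9 prior degrees of freedom), with Benjamini-Hochberg adjustment, and checked on simulated data. Exact permutation tests were two-sided. The number of arrays limits the precision. Positions and promoters are from RefSeq (GRCm38.p6). All members were named with their values in every array. From each other erythroid list up to 4 kept genes were named, those past the adjusted p or otherwise those of highest mean signal, and the 6 genes most like the brightest member. Members and lists were chosen with earlier results of these data known. Alternatives were other normalizations, signal limits, probe rules and variance models, a replicate block and arrays left out, of which leaving out arrays after the shift to a common median of the genes kept was added after seeing the data.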

Additional observations from a re-analysis of the deposited data

Results flagged for a closer look

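Fth1, the ferritin heavy chain, had 1 5-HT array far from the others. Its log2 signals were 14.58, 13.60, 14.54 and 14.46 in 5-HT replicates 1 to 4, and the gap of 5-HT replicate 2 to its nearest neighbour was 0.878 of the range of the group, above Dixon's critical value for 4 samples. Relative to the array median over the genes kept the 4 values were 5.15, 5.32, 5.58 and 5.43, and 5-HT replicate 2 no longer stood apart. Of the 32 groups tested in this way chance would give about 1 in 20.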

How the results depend on the processing

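Neither kept member passed an adjusted p of 0.05 in any setting run, also where many genes did, and none of the 9 members did without the signal limit. All genes called numbered 0 with the deposited values, 3 with a trended and robust prior, 3281 with array weights, 3071 without saline replicate 1 and 5-HT replicate 2, and 0 to 77 with 1 array left out (77 without saline replicate 1). The numbers of the replicates did not pair the arrays, with correlations of their deviations of 0.15, 0.68 and -0.25, and a replicate block, in which 5-HT replicate 4 has no partner, gave 45 genes and log2 fold changes of -0.13 for Alas2 and -0.18 for Slc4a1. Members past the unadjusted threshold and the 1.5-fold change numbered 1 under quantile, cyclic loess and median scaling of the genes kept. In fits of the deposited values with any 1 array left out they numbered 0. In those same fits the members called ranged from 0 to 0 and the median log2 fold change of the kept members from -0.45 to 0.12. These counts do not cover the relative scale with arrays left out. Log2 fold changes that turned sign under quantile normalization, cyclic loess and scaling to the median of the genes kept, in that order, were -0.015, -0.092 and -0.15 for Gypc, -0.058, -0.20 and -0.19 for Ftl1, -0.079, -0.12 and -0.07 for Tmem14c, -0.34, -0.34 and -0.29 for Lmo2, -0.046, -0.22 and -0.36 for Socs3, -0.017, -0.13 and -0.31 for Jak2, -0.070, -0.22 and -0.21 for Gpx1, -0.090, -0.11 and -0.045 for Prdx2 and -0.29, -0.29 and -0.33 for Ube2o. Epor, fitted without the signal limit, turned under the last pair, to -0.056 and -0.30. The median over all 19057 genes in those fits was 0.0059 and -0.40. Fth1 turned under scaling to the median of the genes kept, to -0.0083. Array weights turned Alas2 to 0.22, Hba-a1 to 0.27 and Pik3r1 to 0.017. Without saline replicate 1 and 5-HT replicate 2 the signs turned for Alas2 (0.52), Slc4a1 (0.26), Hbb-bs (0.08), Hba-a1 (0.46), Hbb-bt (0.10), Pik3r1 (0.13) and Car2 (0.17). With 1 array left out, log2 fold changes ranged from -0.41 to 0.22 for Alas2, -0.48 to 0.057 for Slc4a1, -0.62 to 0.15 for Hba-a1, -0.70 to -0.02 for Hbb-bs, -0.82 to -0.14 for Hbb-bt, -0.12 to 0.97 for Gypc, -0.09 to 0.37 for Lmo2, -0.31 to 0.11 for Pik3r1, -0.37 to 0.87 for Socs3, -0.15 to 0.63 for Jak2, -0.10 to 0.47 for Ube2o, -0.073 to 0.50 for Epor and -0.24 to 0.058 for Car2. The relative log2 fold changes ranged from -0.68 to -0.48 for Alas2 and from -0.89 to -0.58 for Slc4a1. The causes were not tested. Of 447 single-gene values under alternatives 359 kept sign and side of the threshold, 63 changed sign (18 of 27 genes) and 25 crossed the adjusted p. Members near the median of all probes cannot show a decrease at this signal.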
